A study of Mus musculus with 7 samples.

Results

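The insulin-like growth factor (IGF) and insulin signalling genes described here are 10 of the 49315 mouse genes counted in neonatal pancreatic islets. The rows were taken by symbol from a fixed list of names, which comprises the ligands Igf1 and Igf2, the receptors Igf1r, Igf2r and Insr, the receptor substrates Irs1 and Irs2, and the mRNA-binding proteins Igf2bp1, Igf2bp2 and Igf2bp3. All 10 were found, and all 10 had enough counts to be tested. Ribosome-depleted total RNA was sequenced from islets of mice aged 7 days. The 4 βNrf2KO libraries came from mice with Nrf2 (gene symbol Nfe2l2) deleted in β-cells, and the 3 control libraries from Nrf2lox/lox mice, which carry the floxed Nrf2 alleles that serve as the target of deletion. Each library was a pool of RNA from 5 animals, numbered 1, 2, 3 and 4 for βNrf2KO and 1, 2 and 4 for control. Their titles read as individual mice although the treatment notes describe pools, and n here counts libraries. Which promoter drives Cre is not given in the sources used here, and the study asked how Nrf2, a transcription factor of the antioxidant response, supports β-cell proliferation after birth.

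IGF1 and IGF2 bind the IGF1 receptor, and insulin binds the insulin receptor. Both receptors are tyrosine kinases that phosphorylate the substrates IRS1 and IRS2, which recruit PI3-kinase and so activate AKT and mTOR. In mouse islets IRS2 is known for its part in β-cell growth and survival, and the IGF2 mRNA-binding proteins are oncofetal proteins whose levels decline after birth in many tissues.

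Total counts per pool ran from 18187382 to 25373105, and the least-counted member, Igf2bp1, had at least 178 counts in every pool. The mitochondrial genome took 10.02% to 27.7% of counts in βNrf2KO pools and 14.6% to 51.8% in control pools, so levels are compared between groups only after TMM normalization, as CPM (counts scaled to library size), on the log2 scale (log2 CPM) or the linear scale (normalized CPM). All 10 β-cell markers examined, which include the insulin genes Ins1 and Ins2, had counts in every pool. Summed β-cell markers were 33707 to 46106 normalized CPM in βNrf2KO pools and 16909 to 47781 in control pools. Most of each sum came from Ins1 and Ins2. Counts on the Cre sequence were 24, 23, 46 and 73 in βNrf2KO pools 1, 2, 3 and 4, and 0 in each control pool. In every difference between the groups, carrying Cre and the deletion of Nrf2 therefore cannot be told apart. Whole-gene Nfe2l2 counts, which include non-β cells and any exons left in place, differed by 0.08 ± 0.23 on the log2 scale (SE, edgeR, adjusted p = 0.911). In bulk tissue, fewer cells of a type and less RNA per cell cannot be told apart.

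The ligand Igf2 and the substrate Irs2 were the most abundant members, and the receptors Igf1r and Igf2r came next. Scaled for gene length and library total as TPM, the level of Igf2 was 173 ± 36.7 TPM in βNrf2KO pools and 152 ± 29.8 TPM in control pools (SD, n = 4 and 3). It ranked 211 among 33919 genes with counts. Irs2 ranked 274, with a level of 140 ± 63.8 TPM in βNrf2KO pools and 138 ± 121 TPM in control pools. Igf1r stood at 59.2 ± 21.4 TPM in βNrf2KO and 30.1 ± 21.6 TPM in control pools. The level of Igf2r was 51.6 ± 9.15 TPM in βNrf2KO and 33.7 ± 14.9 TPM in control pools.

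At the lower end of this length-scaled order stood Igf2bp1, with 3.54 ± 0.560 TPM in βNrf2KO and 2.41 ± 1.03 TPM in control pools. Its ligand neighbour in the order, Igf1, had 6.32 ± 2.74 TPM in βNrf2KO and 4.45 ± 1.66 TPM in control pools. The islets therefore held many more Igf2 than Igf1 transcripts, with an Igf2 to Igf1 ratio of TPM of 29.7 ± 8.64 in βNrf2KO and 36.6 ± 10.3 in control pools. In βNrf2KO pools the ranges of neighbours did not overlap between Igf2r and Igf2bp2, Igf2bp2 and Insr, Irs1 and Igf2bp3, and Igf1 and Igf2bp1. In control pools they were apart between Irs2 and Igf2r, and the ranges of every other pair of neighbours overlapped. TPM shares its total with the mitochondrial genome, so the TPM of the groups is not a test of a difference. With that genome left out, Igf2 averaged 292 ± 53.1 TPM in βNrf2KO and 420 ± 170 TPM in control pools (SD, n = 4 and 3). The groups overlapped, since control pool 4, at 225 TPM, was below every βNrf2KO pool.

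**Figure D1:**
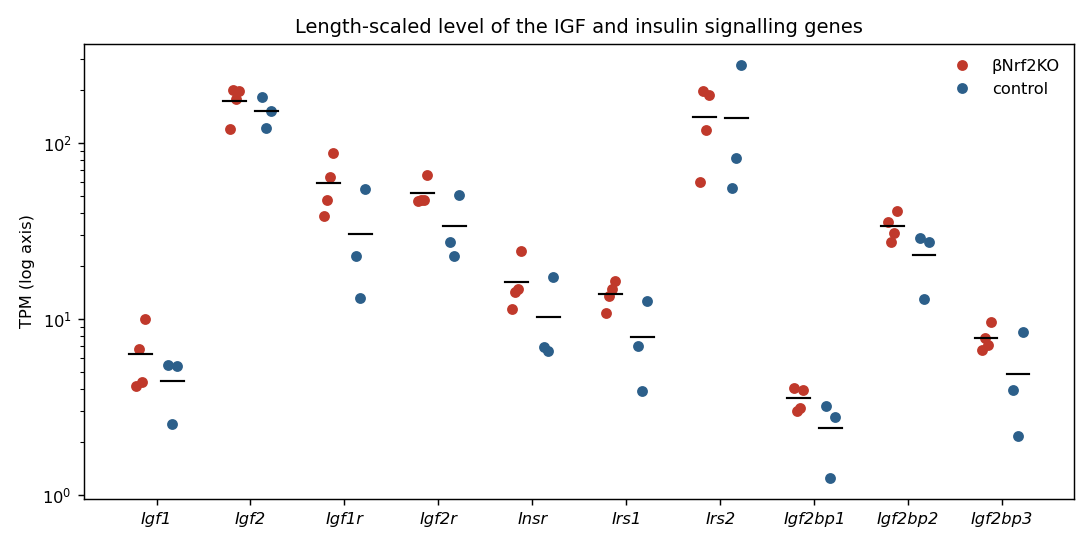
Length-scaled level (TPM, log axis) of the 10 genes in each pool, βNrf2KO in red and control in blue, with a bar at the mean of each group. Igf2 and Irs2 sit highest and Igf2bp1 lowest in both groups.

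None of the 10 genes differed between βNrf2KO and control islets at an adjusted p of 0.05 (edgeR quasi-likelihood test, Benjamini-Hochberg over 19893 genes). The background was 0% of all tested genes with edgeR and with limma-voom, and 2 genes with DESeq2, neither of them a member. An unadjusted p under 0.05 was found for 1683 genes with edgeR. Among them, 1 of 10 members was higher (Igf1r, against 3.23% of tested genes) and 1 of 10 lower (Igf2, against 5.23%), or 2 of 10 in either direction against 8.46%. The log2 CPM of the groups overlapped for all 10 members, where 6.99% of tested genes had groups that did not overlap. The fold changes were above 0 for 4 members and below 0 for 6, with a median of -0.08, beside -0.01 over all tested genes.

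**Figure D2:**
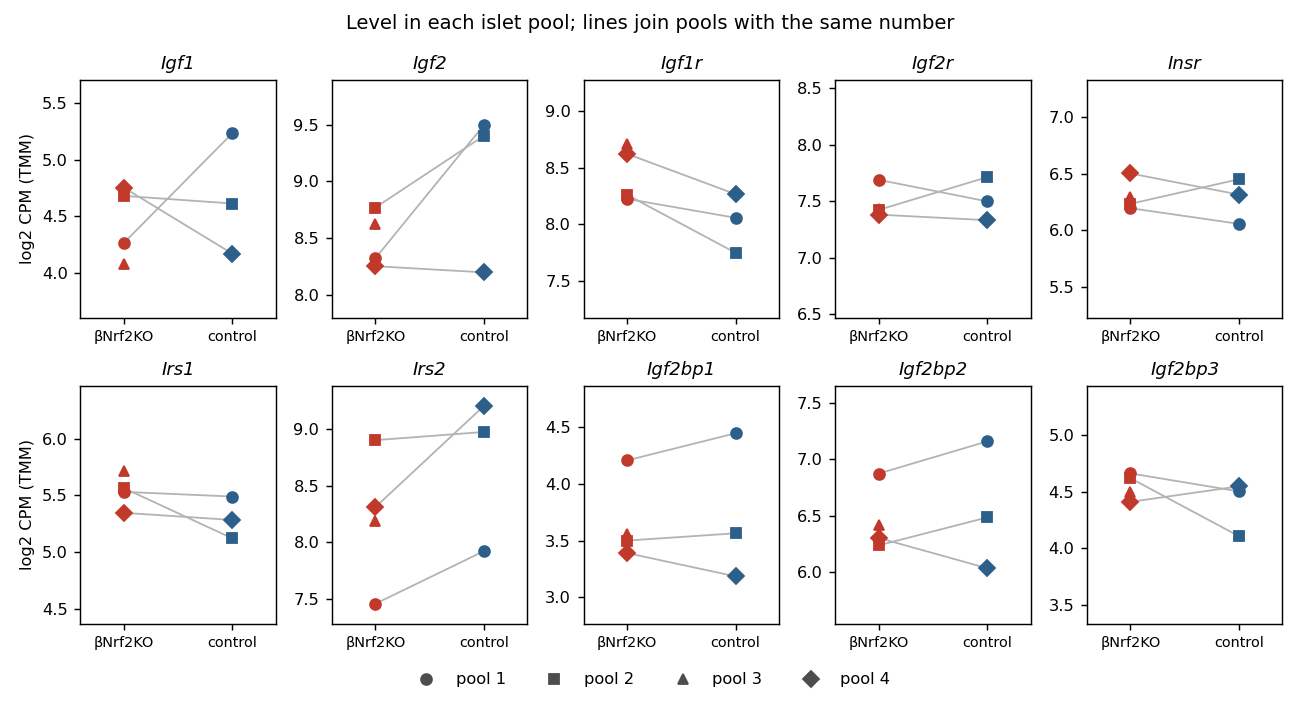
Level (log2 CPM after TMM normalization) of each gene in each pool, βNrf2KO left and control right, with the pool number given by the symbol and lines joining pools of the same number. The groups overlap in every panel, while Igf1r is higher and Irs2 lower in βNrf2KO along each of the 3 lines.

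Igf2, the fetal growth factor of the family and an imprinted gene expressed from the paternal allele, had the largest log2 difference of the 10 with all pools included (ENSMUSG00000048583, GRCm38 chromosome 7, 142650766 to 142666816, minus strand). Igf2 had 8.32, 8.77, 8.63 and 8.25 log2 CPM in βNrf2KO pools 1, 2, 3 and 4, against 9.50, 9.40 and 8.20 log2 CPM in control pools 1, 2 and 4. Control pools 1 and 2 were above every βNrf2KO pool, and control pool 4 was below every one of them. The log2 fold change of Igf2 was -0.63 ± 0.27 (SE), with an unadjusted p of 0.0392 and an adjusted p of 0.571 in edgeR. Without control pool 1 it was -0.41 and without control pool 4 it was -0.95.

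The 3 pools with the most Igf2 were also the 3 with the most fibroblast marker RNA. The 7 fibroblast markers, collagens and matrix genes such as Col1a1 and Dcn, summed to 484, 846, 402 and 508 normalized CPM in βNrf2KO pools 1, 2, 3 and 4, against 1364, 1113 and 450 in control pools 1, 2 and 4. Control pools 1 and 2 and βNrf2KO pool 2 were these 3, while βNrf2KO pool 3, next for Igf2 with 395 normalized CPM, had the lowest fibroblast sum. The 6 pericyte markers summed to 594 to 889 normalized CPM in βNrf2KO pools and 665 to 1807 in control pools. No fibroblast or pericyte marker was at 0 in any pool. The part of these cells in the Igf2 difference was not tested. The 3 genes whose log2 CPM was most like that of Igf2 over the 7 pools were Cav1 (Pearson r = 0.997), which encodes a caveolar membrane protein, Cep95 (0.985) and Mfap4 (0.975), which encodes a microfibril protein of the extracellular matrix.

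**Figure D3:**
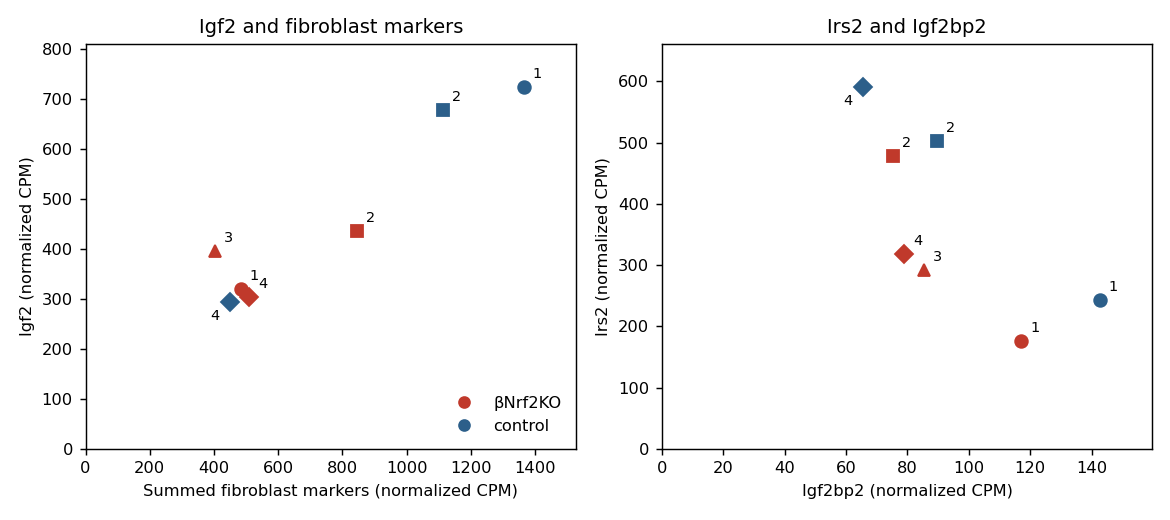
Left, normalized CPM of Igf2 against the summed normalized CPM of 7 fibroblast markers, and right, normalized CPM of Irs2 against that of Igf2bp2, with 1 point per pool, βNrf2KO in red and control in blue, labelled by pool number. Control pools 1 and 2 are highest on both axes at the left, and the 2 pools numbered 1 have the most Igf2bp2 and the least Irs2 in their group at the right.

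The long non-coding RNA H19, which neighbours Igf2 in the same imprinted domain and is expressed from the maternal allele, followed a similar order of pools. H19 had 7.09, 7.66, 7.07 and 6.59 log2 CPM in βNrf2KO pools 1, 2, 3 and 4, against 8.49, 8.22 and 7.02 in control pools 1, 2 and 4. Control pools 1 and 2 were again above every βNrf2KO pool, and the groups overlapped through control pool 4. Its log2 fold change was -0.88 ± 0.32 (SE, edgeR, adjusted p = 0.571), and -0.59 without control pool 1.

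Igf1, the growth-hormone-dependent ligand, was a low-level gene with no clear difference (ENSMUSG00000020053, chromosome 10, 87858265 to 87937042, plus strand). Igf1 had 4.26, 4.68, 4.08 and 4.75 log2 CPM in βNrf2KO pools 1, 2, 3 and 4, against 5.23, 4.61 and 4.17 log2 CPM in control pools 1, 2 and 4. The highest value belonged to control pool 1, and the other 6 pools lay between 4.08 and 4.75. The log2 fold change was -0.27 ± 0.26 (SE, edgeR, adjusted p = 0.724), and it was 0.07 without control pool 1. The 7 macrophage markers summed to 37.7 to 53.5 normalized CPM in βNrf2KO pools, against 82.5, 50.1 and 40.5 in control pools 1, 2 and 4, so that control pool 1 was highest here too. Control pool 1 was also highest for the summed fibroblast markers, at 1364 normalized CPM, and the summed acinar markers, at 375, but for no other marker set examined. The part of macrophages or of any other cell type was not tested. The genes most like Igf1 over the 7 pools were Pcdh7 (r = 0.974), a protocadherin, C1qc (0.967), a complement subunit made by macrophages, and Ube3b (0.962), a ubiquitin ligase.

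Among the receptors, Igf1r, the kinase that binds both ligands, was higher in βNrf2KO than in control within each of the 3 pairs of same-numbered pools (ENSMUSG00000005533, chromosome 7, 67952827 to 68233668, plus strand). Igf1r had 8.23, 8.26, 8.71 and 8.62 log2 CPM in βNrf2KO pools 1, 2, 3 and 4, against 8.06, 7.75 and 8.27 log2 CPM in control pools 1, 2 and 4. The groups overlapped narrowly, since control pool 4 was just above βNrf2KO pools 1 and 2. The differences within the pairs numbered 1, 2 and 4 were 0.17, 0.51 and 0.36 on the log2 scale. The log2 fold change was 0.43 ± 0.19 (SE), with an unadjusted p of 0.0406 and an adjusted p of 0.571 in edgeR. It ranged from 0.30 to 0.56 when each pool was left out in turn. A change of this size or more, in either direction, was seen in 28.5% of tested genes.

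Control pool 2, the pool with the lowest Igf1r, had the lowest β-cell marker sum, 16909 normalized CPM, most of it Ins1 and Ins2. It also had the highest mitochondrial share, 51.8%. The part of either in the Igf1r difference was not tested. The genes most like Igf1r over the 7 pools were Mettl9 (r = 0.995), a histidine methyltransferase, Lbhd1 (0.992) and Sppl3 (0.992), an intramembrane protease.

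Insr, the insulin receptor itself, was at nearly the same level in both groups (ENSMUSG00000005534, chromosome 8, 3122061 to 3279617, minus strand). Insr had 6.20, 6.24, 6.30 and 6.50 log2 CPM in βNrf2KO pools 1, 2, 3 and 4, against 6.06, 6.45 and 6.32 log2 CPM in control pools 1, 2 and 4. The highest pool was βNrf2KO and the lowest was control, with the rest interleaved. Its log2 fold change was 0.03 ± 0.16 (SE, edgeR, adjusted p = 0.957). Most like Insr over the pools were Phkb (r = 0.978), a phosphorylase kinase subunit, Gtf2i (0.971) and Meis2 (0.963), both of them transcription factors.

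Set against each other per length, there were 0.277 ± 0.0329 Insr transcripts for each Igf1r transcript in βNrf2KO pools and 0.372 ± 0.108 in control pools (TPM ratio, SD, n = 4 and 3). The βNrf2KO pools spanned 0.230 to 0.2996 and the control pools 0.305 to 0.497. The ranges did not overlap, by a narrow margin between the closest pools, and the ratio was examined because both receptors are members. Every other ratio or share of members computed here had overlapping groups. The share of such ratios apart over all genes was not computed, and 6.99% of single tested genes had groups that did not overlap. The Insr to Igf1r ratio was computed within each pool, so it does not depend on the normalization between pools, and no test was made of it.

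Igf2r, which carries IGF2 to the lysosome and has no kinase, was the steadiest member across pools (ENSMUSG00000023830, chromosome 17, 12682406 to 12769664, minus strand). Igf2r had 7.69, 7.42, 7.43 and 7.38 log2 CPM in βNrf2KO pools 1, 2, 3 and 4, against 7.50, 7.71 and 7.33 log2 CPM in control pools 1, 2 and 4. βNrf2KO pool 1 stood apart from the other 3 of its group, and within the control group pool 2 was highest. The range over all 7 pools was 0.38 on the log2 scale, and 10.8% of the 7110 genes with an average of at least 4 log2 CPM had a smaller one. The log2 fold change was -0.04 ± 0.16 (SE, edgeR, adjusted p = 0.943). The TPM ratio of Igf2r to Igf2 was 0.306 ± 0.0688 in βNrf2KO and 0.224 ± 0.0961 in control pools, with overlapping ranges. Igf2r was followed most closely by Acads (r = 0.988), an acyl-CoA dehydrogenase of mitochondria, Mroh1 (0.988) and Pinx1 (0.984), a telomerase inhibitor.

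Of the substrates, Irs2 varied more between pools than any other member (ENSMUSG00000038894, chromosome 8, 10984681 to 11008458, minus strand). Irs2 had 7.46, 8.90, 8.19 and 8.31 log2 CPM in βNrf2KO pools 1, 2, 3 and 4, against 7.92, 8.98 and 9.21 log2 CPM in control pools 1, 2 and 4. The lowest pool in each group was the one numbered 1, and in each same-numbered pair the βNrf2KO pool was the lower. In raw counts Irs2 had 3290, 10242, 6226 and 8658 in βNrf2KO pools 1, 2, 3 and 4, against 4278, 7635 and 17797 in control pools 1, 2 and 4. The range over the 7 pools was 1.75 on the log2 scale, and 96.1% of the 7110 genes had a smaller one, with a median range of 0.73.

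The log2 fold change of Irs2 was -0.50 ± 0.34 (SE), with an unadjusted p of 0.177 and an adjusted p of 0.635 in edgeR. Within the pairs numbered 1, 2 and 4 the differences were -0.46, -0.07 and -0.89 on the log2 scale. With the pool number as a block the log2 fold change was -0.48 ± 0.19 (SE, edgeR), with an unadjusted p of 0.0251 and an adjusted p of 0.354, so the adjusted call did not change. βNrf2KO pool 3 has no control of its number, so the fold changes of that fit rest on the 3 pairs. In that fit 0 of 10 members passed the adjusted threshold, against 0.0704% of tested genes. An unadjusted p under 0.05 was found for 2 of 10, Igf2 and Irs2, against 12.1% of tested genes, while that of Igf1r was 0.0538. Irs2 was the 1 member of 10 lower in βNrf2KO in all 3 pairs, against a background of 17.9% of tested genes, and Igf1r and Irs1 were the 2 of 10 higher in all 3 pairs, against 19.1%. These shares are near those of all genes. Without control pool 4 the Irs2 value was -0.24, and without control pool 1 it was -0.79. The genes most like Irs2 were Add1 (r = 0.994), a spectrin-binding adducin, Zbtb10 (0.992), a zinc-finger repressor, and Slc29a1 (0.991), a nucleoside transporter.

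Irs1, the other substrate, had 5.53, 5.56, 5.71 and 5.34 log2 CPM in βNrf2KO pools 1, 2, 3 and 4, against 5.49, 5.12 and 5.28 log2 CPM in control pools 1, 2 and 4 (ENSMUSG00000055980, chromosome 1, 82233101 to 82291416, minus strand). Control pool 1 lay among the βNrf2KO pools, and the other 2 control pools were the lowest of the 7. The log2 fold change was 0.24 ± 0.16 (SE, edgeR, adjusted p = 0.632), and it stayed between 0.15 and 0.34 when each pool was left out in turn. Irs2 was the more abundant substrate in every pool, with an Irs2 to Irs1 TPM ratio of 9.89 ± 3.98 in βNrf2KO and 16.9 ± 7.90 in control pools. The ratios ran from 5.51 to 14.7 in βNrf2KO pools and from 7.83 to 21.998 in control pools, so the groups overlapped. Of the exon bases of Irs1, 30.9% lie over Gm9747 on the opposite strand, which had 0 counts in every pool. Genes much like Irs1 over the pools included Ndufaf4 (r = 0.993), an assembly factor of respiratory complex I, and Pacsin2 (0.968).

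**Figure D4:**
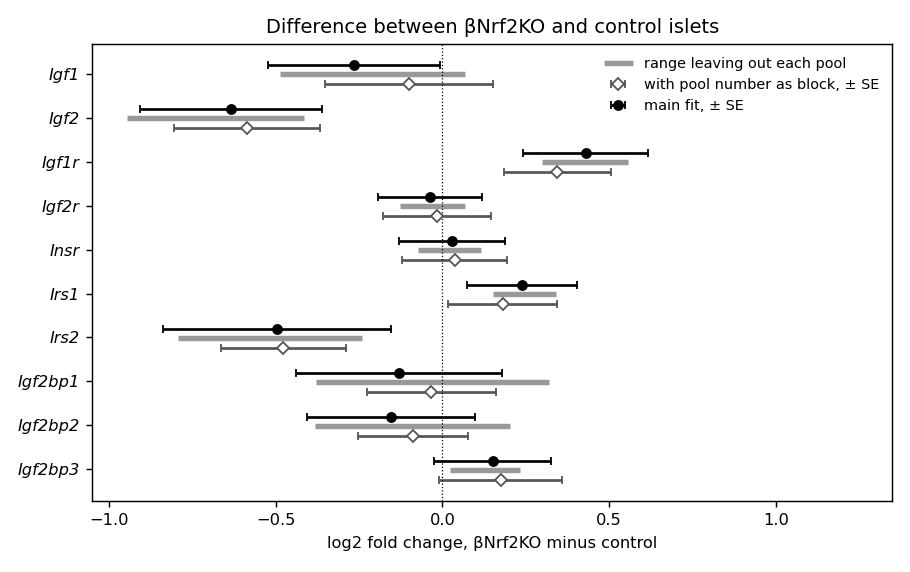
Log2 fold change of βNrf2KO over control for each gene, with the standard error in the main fit (filled circles) and with pool number added as a block (open diamonds), and the range when each pool was left out in turn (grey bars). Igf1r, Irs1 and, narrowly, Igf2bp3 stay above 0 and Igf2 and Irs2 below 0 along their grey bars. The bars of Igf1, Igf2r, Insr, Igf2bp1 and Igf2bp2 cross 0.

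Because Nrf2 binds antioxidant response elements, promoters of the members were searched for the core TGACNNNGC on both strands. RefSeq promoters (GRCm38.p6), 250 bases before to 50 after each start, were matched for 8 of the 10 members, 11 promoters in all. The core was found in 3 of the 11, in 1 of 4 Igf2 promoters and in those of Irs1 and Irs2, while 12.4% of 32851 promoters of this length hold it. The 3 that hold the core are shown, and those without it are not. Each is printed 5′ to 3′ in the direction of the gene, and the capitals mark the core, read on the opposite strand in all 3.
Igf2 promoter, chr7:142661222-142661521, minus strand: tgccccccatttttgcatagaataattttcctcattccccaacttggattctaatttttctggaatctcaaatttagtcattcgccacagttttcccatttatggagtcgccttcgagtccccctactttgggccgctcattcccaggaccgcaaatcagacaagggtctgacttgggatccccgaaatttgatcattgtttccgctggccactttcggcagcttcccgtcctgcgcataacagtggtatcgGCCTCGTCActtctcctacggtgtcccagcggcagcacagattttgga
Irs1 promoter, chr1:82291390-82291689, minus strand: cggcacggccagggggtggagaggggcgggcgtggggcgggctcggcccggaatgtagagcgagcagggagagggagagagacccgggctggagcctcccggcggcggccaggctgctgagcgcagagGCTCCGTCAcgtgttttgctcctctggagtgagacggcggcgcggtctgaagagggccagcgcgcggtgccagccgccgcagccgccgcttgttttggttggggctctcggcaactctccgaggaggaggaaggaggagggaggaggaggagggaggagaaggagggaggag
Irs2 promoter, chr8:11008880-11009179, minus strand: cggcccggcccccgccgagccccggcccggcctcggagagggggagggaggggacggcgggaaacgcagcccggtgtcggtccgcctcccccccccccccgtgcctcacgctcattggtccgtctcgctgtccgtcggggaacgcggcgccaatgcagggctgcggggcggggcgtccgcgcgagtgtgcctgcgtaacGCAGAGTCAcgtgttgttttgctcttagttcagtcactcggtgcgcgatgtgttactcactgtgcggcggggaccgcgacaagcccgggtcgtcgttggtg
The match began at 2 in Igf2, at -122 in Irs1 and at -51 in Irs2, in bases from the start site. A match describes letters in these windows and no binding was measured. The 3 genes with a match did not share a direction, with log2 fold changes of -0.63 for Igf2, 0.24 for Irs1 and -0.50 for Irs2, and none passed the test.

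The mRNA-binding proteins formed a graded set in which Igf2bp2 dominated. Per length, Igf2bp2 gave 74.7% ± 2.07 of the summed Igf2bp TPM in βNrf2KO pools and 76.7% ± 5.04 in control pools (SD, n = 4 and 3). Igf2bp3 gave 17.4% ± 2.42 in βNrf2KO and 15.4% ± 5.79 in control pools. Igf2bp1 gave 7.89% ± 0.691 in βNrf2KO and 7.92% ± 0.939 in control pools. Each share differed between the groups by less than the SD between pools. These proteins bind IGF2 and other mRNAs and govern their stability and translation.

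Igf2bp2 had 6.87, 6.24, 6.42 and 6.30 log2 CPM in βNrf2KO pools 1, 2, 3 and 4, against 7.16, 6.49 and 6.04 log2 CPM in control pools 1, 2 and 4 (ENSMUSG00000033581, chromosome 16, 22059009 to 22163299, minus strand). Igf2bp1 had 4.21, 3.50, 3.55 and 3.39 log2 CPM in βNrf2KO pools 1, 2, 3 and 4, against 4.45, 3.56 and 3.18 log2 CPM in control pools 1, 2 and 4 (ENSMUSG00000013415, chromosome 11, 95957163 to 96005940, minus strand). In both genes the pool numbered 1 was the highest of its group and control pool 4 the lowest of all. Igf2bp1 was among the 3 genes most like Igf2bp2 out of 12765, at r = 0.984 over the 7 pools, after Cabp1 (0.996), a calcium-binding protein, and ahead of Zcchc8 (0.983), an RNA-decay factor. Igf2bp1 itself was most like Git2 (r = 0.992), Csf1 (0.987), the macrophage growth factor, and Prr5l (0.985). The log2 fold changes were -0.15 ± 0.25 for Igf2bp2 and -0.13 ± 0.31 for Igf2bp1 (SE, edgeR, adjusted p = 0.836 and 0.891). Without control pool 1 both turned to the other side of 0, at 0.20 for Igf2bp2 and 0.32 for Igf2bp1.

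Irs2 tended to run against Igf2bp2 between the pools, though not in all of them. βNrf2KO pool 1 had 117 normalized CPM of Igf2bp2 and 176 of Irs2, and control pool 1 had 143 of Igf2bp2 and 243 of Irs2. At the other end, control pool 4 had 65.6 normalized CPM of Igf2bp2 and 590 of Irs2. This pair was picked after the values were seen and gets no test.

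Igf2bp3 did not share that order (ENSMUSG00000029814, chromosome 6, 49085223 to 49214957, minus strand). Igf2bp3 had 4.66, 4.62, 4.50 and 4.41 log2 CPM in βNrf2KO pools 1, 2, 3 and 4, against 4.50, 4.11 and 4.55 log2 CPM in control pools 1, 2 and 4. Control pool 2 was the lowest, and the other 6 pools lay within 4.41 to 4.66. Its log2 fold change was 0.15 ± 0.18 (SE, edgeR, adjusted p = 0.769). The 3 genes most like Igf2bp3 included Fdps (r = 0.987) and Hmgcs1 (0.981), enzymes of the mevalonate pathway, and Hsd17b7 (0.991), an enzyme of cholesterol synthesis. Of the exon bases of Igf2bp3, 1529 (18.7%) lie over Malsu1 on the opposite strand, which had 113 to 341 counts. Whether counting used strand is not given in the sources used here, so reads of both genes from that stretch cannot be told apart.

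The Igf2bp genes and several receptors are known targets of the let-7 microRNAs, which accumulate as tissues mature. Of the RefSeq mouse microRNAs, at least 11 share the let-7 seed, and 2 of them are shown with the seed (bases 2 to 8) in capitals to set beside the sites.
mmu-let-7a-5p: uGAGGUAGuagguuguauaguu
mmu-miR-98-5p: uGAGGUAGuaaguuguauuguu
The 7-base seed match CTACCTC was found in the longest annotated 3′ UTR (GENCODE M21, GRCm38) of 8 of the 10 members, all but Igf2 and Irs1. For comparison, 9.02% of 21028 genes hold it, and 16.7% of the 8413 genes whose 3′ UTR is at least as long as the shortest of the members (1304 bases). Igf2bp1 held 4 matches and Igf1r 2, and 0.152% of genes, with 3′ UTRs of any length, held 3 or more. The 3′ UTR was 6337 bases in Igf2bp1 and 7267 in Igf1r, against a median of 961 over genes. Longer UTRs have more room for a match, so these shares are not matched to the lengths of the members. Sites of the 3 binding proteins, both of Igf1r and that of Irs2 are shown with the match in capitals, in windows of 30 bases, each with the position of the match from the start of the 3′ UTR.
Igf2bp1, position 1715: gctgtgcgaagtaaaCTACCTCaaggtgtg
Igf2bp1, position 4136: cagcagtgctattaaCTACCTCagccccag
Igf2bp1, position 4730: gtataaatggatgaaCTACCTCagtcctca
Igf2bp1, position 5353: acttttggttttaatCTACCTCttagcaaa
Igf2bp2, position 1313: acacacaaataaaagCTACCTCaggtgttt
Igf2bp3, position 548: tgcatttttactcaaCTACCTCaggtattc
Igf1r, position 2724: ttttcaaacatttatCTACCTCactcttgt
Igf1r, position 6830: tttgccagagttcatCTACCTCtgggattt
Irs2, position 475: aaaactaccacagtcCTACCTCagttcagg
The matches describe the annotated transcripts only, since mature microRNAs were not measured. Members with a match lay on both sides of 0, from -0.50 for Irs2 to 0.43 for Igf1r on the log2 scale.

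Beyond the 10 genes, 5 lists of the pathway were examined, and none of their genes passed an adjusted p of 0.05 in edgeR, as was so for all genes tested. Their unadjusted calls are set beside the 3.23% of tested genes that were higher and the 5.23% that were lower at p under 0.05, or 8.46% in all. Over the 5 lists 7 of 102 genes (6.86%) had such a p. Control pool 2 decided many of the values that follow, which are given without it where they shrank by more than 1.5 times. The first list holds genes that supply, bind or release the ligands, such as the insulins, IGF-binding proteins and pappalysins, with 19 of 20 tested (Igfbp1 was not). In it 11 fold changes were above 0 and 8 below, with a median of 0.12, and at an unadjusted p of 0.05 the list had 1 higher and 2 lower genes, 15.8% of the list in all. With the pool number as a block 5 of its 19 genes (26.3%) had such a p, against 12.1% of all tested genes. Igfbp3, the main carrier of IGFs in serum, had 7.61, 7.90, 8.001 and 7.35 log2 CPM in βNrf2KO pools 1, 2, 3 and 4, against 7.65, 6.55 and 6.48 in control pools 1, 2 and 4. Control pools 2 and 4 were below every βNrf2KO pool, and control pool 1 lay among them. Its log2 fold change was 0.74 ± 0.28 (SE, edgeR, adjusted p = 0.571).

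Igfbp5, a binding protein of stroma and bone, had 7.05, 7.69, 7.25 and 7.16 log2 CPM in βNrf2KO pools 1, 2, 3 and 4, against 7.60, 8.47 and 7.39 in control pools 1, 2 and 4. It was lower in βNrf2KO in all 3 pairs, with the groups overlapping through βNrf2KO pool 2. Its log2 fold change was -0.59 ± 0.25 (SE, edgeR, adjusted p = 0.571), and it was -0.19 without control pool 2. Ins1, the rodent-specific insulin gene, had 12.95, 12.55, 12.76 and 12.44 log2 CPM in βNrf2KO pools 1, 2, 3 and 4, against 13.18, 12.57 and 13.97 in control pools 1, 2 and 4. Ins1 was likewise lower in all 3 pairs, as were 17.9% of tested genes, with a log2 fold change of -0.66 ± 0.31 (SE, edgeR, adjusted p = 0.571). Without control pool 4 it was -0.22.

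Ins2, the other mouse insulin gene, lay on the opposite side of 0 and was added after its values were seen. Ins2 had 14.82, 14.45, 14.96 and 14.55 log2 CPM in βNrf2KO pools 1, 2, 3 and 4, against 13.78, 13.01 and 14.64 in control pools 1, 2 and 4. Control pools 1 and 2 were below every βNrf2KO pool, and control pool 4 lay among them. Ins2 had a log2 fold change of 0.75 ± 0.36 (SE, edgeR, adjusted p = 0.571), and 0.43 without control pool 2. With the block it was 0.80 ± 0.34 (SE, edgeR, adjusted p = 0.384).

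Downstream, the 30 genes of PI3K, AKT and mTOR signalling split evenly, 15 above and 15 below 0, with a median log2 fold change of 0.01. At an unadjusted p of 0.05 the list had 0 higher genes and 1 lower gene, Pik3r3, a regulatory subunit of PI3-kinase, at -0.38 ± 0.16 (SE, edgeR, adjusted p = 0.571). With the block the list had 2 higher genes (Rps6kb1 and Eif4ebp1) and 1 lower gene (Rps6kb2), 3 of 30 against 12.1% of all tested genes, and Pik3r3 was not among them. Akt1s1, the AKT substrate that restrains mTOR, had 3.86, 3.69, 3.70 and 3.90 log2 CPM in βNrf2KO pools 1, 2, 3 and 4, against 4.00, 4.23 and 4.08 in control pools 1, 2 and 4. All 4 βNrf2KO pools were below all 3 control pools, in 1 of 30 genes of the list (3.33%) against 6.99% of tested genes, with a log2 fold change of -0.32 ± 0.17 (SE, edgeR, adjusted p = 0.584). Rptor, the scaffold of mTOR complex 1, stood at -0.42 ± 0.22, and at -0.16 without control pool 2. The S6 kinases lay on opposite sides of 0, Rps6kb2 at -0.45 ± 0.23 and Rps6kb1 at 0.37 ± 0.22, and without control pool 2 at -0.22 and 0.16. The groups overlapped for Rptor and for both S6 kinases.

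In the branch from the receptors through adaptors and RAS to ERK, 10 of 19 fold changes were above 0 and 9 below, with a median of 0.09. At an unadjusted p of 0.05 the list had 2 higher genes and 0 lower genes. Rps6ka3, 1 of these, an ERK-activated kinase, had 7.00, 7.12, 7.47 and 7.41 log2 CPM in βNrf2KO pools 1, 2, 3 and 4, against 6.93, 6.16 and 6.96 in control pools 1, 2 and 4. All βNrf2KO pools were above all control pools, in 1 of 19 genes of the list (5.26%) against 6.99% of tested genes, with a log2 fold change of 0.54 ± 0.21 (SE, edgeR, adjusted p = 0.571), and 0.32 without control pool 2. The adaptor Gab1 stood at -0.33 ± 0.20, and at -0.10 without that pool, with overlapping groups.

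The fourth list was drawn up around restraint of the receptors and substrates, and it also holds the adaptors Sh2b1 and Sh2b2. Of its 20 genes, 7 fold changes were above 0 and 13 below, with a median of -0.11. At an unadjusted p of 0.05, 0 were higher and 1 was lower. That gene, Pik3ip1, an inhibitor of PI3-kinase, had 2.70, 2.73, 2.89 and 2.88 log2 CPM in βNrf2KO pools 1, 2, 3 and 4, against 2.58, 4.11 and 3.40 in control pools 1, 2 and 4. Control pools 2 and 4 were above all βNrf2KO pools and control pool 1 was below them. Pik3ip1 had a log2 fold change of -0.70 ± 0.30 (SE, edgeR, adjusted p = 0.571), and -0.27 without control pool 2. The lipid phosphatase gene Inppl1 stood at -0.37 ± 0.21, and the cytokine-signalling suppressors Socs3 and Socs1 at -0.29 ± 0.21 and -0.41 ± 0.30, all with overlapping groups. Without control pool 2 these were -0.095 for Inppl1, -0.16 for Socs3 and -0.12 for Socs1.

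The fifth list holds let-7 processing genes and other oncofetal RNA-binding proteins, with 14 of 15 tested (Lin28b was not). In it 8 fold changes were above 0 and 6 below, with a median of 0.02 and no gene at an unadjusted p of 0.05. Syncrip, an RNA-binding protein, stood at 0.31 ± 0.15 and Dgcr8, the partner of Drosha, at 0.34 ± 0.17, and both were higher in βNrf2KO in all 3 pairs. They were the 2 such genes of 14 (14.3%), against 19.1% of tested genes, and Dgcr8 was at 0.22 without control pool 2. Trim71, a let-7 target first known from worms, stood at -0.47 ± 0.27, and Dis3l2, the nuclease that degrades uridylated let-7 precursors, at -0.33 ± 0.22. Without control pool 2 they were -0.20 for Trim71 and -0.012 for Dis3l2, which was higher in βNrf2KO in 2 of the 3 pairs.

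**Figure D5:**
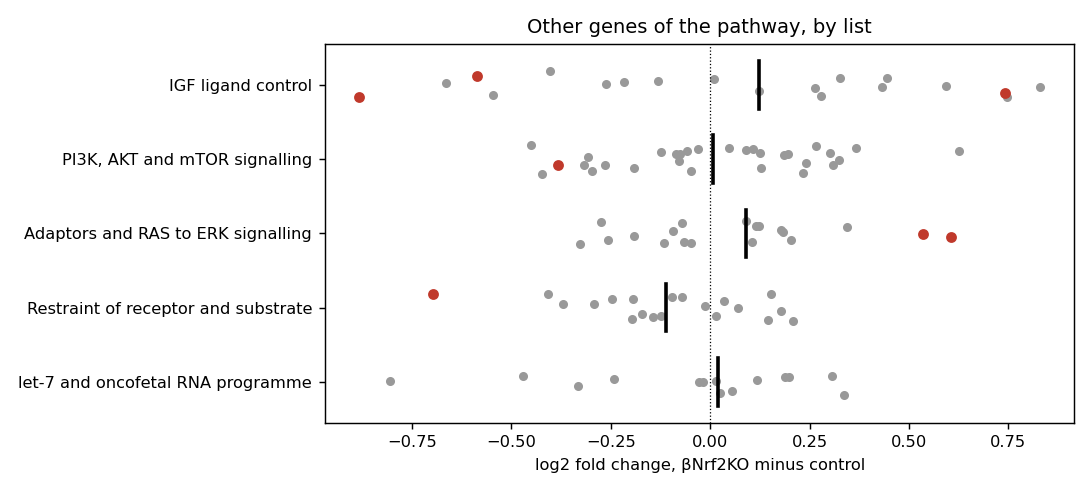
Log2 fold change of βNrf2KO over control for each tested gene of the 5 lists, with a vertical bar at the median of each list and genes at an unadjusted p under 0.05 in red. The medians lie between -0.11 and 0.12, and every list has genes on both sides of 0.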

How the data were processed

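The authors deposited raw read counts per gene for each pool, per the file headers from featureCounts. The submitters' processing notes name bcl2fastq 2.20, Trimmomatic 0.36, STAR 2.5.2b and Subread 1.5.2. They also name the genome build GRCm39, but of 48970 gene IDs shared with GENCODE M21 (GRCm38), 44772 (91.4%) began and ended at identical positions, and GRCm38 coordinates are given. Cre counts entered neither the library sizes nor any test, and a combined version of the counts was not used. The gene name reference left 345 IDs without a symbol.

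Counts were tested with edgeR 4.0.16 in R 4.3.3 (data.table package, version 1.17.8), using TMM, the filterByExpr filter and a two-sided quasi-likelihood test with robust dispersions, adjusted by Benjamini-Hochberg over 19893 genes, with a threshold of 0.05. Log2 CPM used a prior count of 2, and TPM used the gene lengths in the files. Fold changes are βNrf2KO minus control on the log2 scale. The common biological coefficient of variation was 0.280. DESeq2 1.42.0, limma-voom 3.58.1, RLE normalization, a normalization without the mitochondrial genome, no filter, a filter of 1 CPM in 3 pools, a threshold of 0.1, a block and leaving out each pool were alternatives. The scripts were tested on simulated data with 200 changed genes.

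The p-values measure the spread between pools of 5 animals. Deviations from the group means correlated over genes between same-numbered pools, with r of 0.376 for pair 1, 0.229 for pair 2 and 0.323 for pair 4, while r was -0.353 to 0.241 for other combinations. The largest of the others, 0.241 for βNrf2KO pool 3 with control pool 4, was above that of pair 2. Deviations within a group sum to 0, so these r values are not independent and do not settle the pairing. The block took the numbers as pairs, whose meaning the labels leave unstated. βNrf2KO pool 3 has no control of its number, so the block fold changes rest on the 3 pairs. The members and lists were chosen with earlier results of these data known. All members were named, with the 4 genes of smallest unadjusted p in each list and the 3 genes of highest Pearson r with each member over the 7 pools, except a few genes that are not reported here. Ins2, Rps6kb1, Eif4ebp1 and Insrr, and the binding proteins whose levels are given, are outside this rule and were added with their values in view. Those r values are descriptions across libraries shared by all genes. Among the acinar markers Amy2a5 was at 0 in all 7 pools and Pnlip in 2, and the others had counts in every pool. The 8 acinar markers summed to 45.3 to 202 normalized CPM in βNrf2KO pools and 51.7 to 375 in control pools. The most was in control pool 1. Counting error is small beside the spread between pools, since every member had at least 178 counts.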

Additional observations from a re-analysis of the deposited data

Results flagged for a closer look

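Of 36 checks of a gene or ratio for a pool apart from the other 3 of the βNrf2KO group, 1 found one, and chance alone gives about 5%. Igf2r had 7.69 log2 CPM in βNrf2KO pool 1, where βNrf2KO pools 2, 3 and 4 had 7.42, 7.43 and 7.38. The control group, with 3 pools, is too small for this check.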

How the results depend on the processing

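No member passed the adjusted threshold under any alternative. The fold changes of all 10 kept their direction under the 7 alternatives that left out no pool. Among these, the block fit rests on the 3 pairs, since βNrf2KO pool 3 has no control of its number. Genes past the threshold numbered 0 in the main fit, 14 with the pool number as a replicate block (1 higher and 13 lower), 2 with DESeq2 and 0 to 1 when a pool was left out (1 without control pool 4). The block changed no adjusted call of a member or list gene. At an unadjusted p of 0.05 it gained Irs2 and lost Igf1r among members, and 11 list genes had such a p with it, against 7 without it and 6 in both. Genes at an unadjusted p of 0.05 numbered 1683, and 2620 with no filter. Leaving out a pool gave 474 to 3446 of them, with 780 without βNrf2KO pool 3, 820 without βNrf2KO pool 4, 2893 without control pool 1, 474 without control pool 2 and 3446 without control pool 4. Members at an unadjusted p of 0.05 numbered 2, against 1 with limma-voom and 0 to 3 when a pool was left out (0 without βNrf2KO pool 3, βNrf2KO pool 4 or control pool 2). Fold changes that crossed 0 did so without 1 pool: Igf1 (-0.49 to 0.067), Igf2bp1 (-0.38 to 0.32) and Igf2bp2 (-0.38 to 0.20) without control pool 1, Insr (-0.073 to 0.12) without control pool 1 or βNrf2KO pool 4, and Igf2r (-0.13 to 0.067) without control pool 2. The median of the ligand control list was 0.29 with limma-voom and -0.039 to 0.23 when a pool was left out. That of PI3K, AKT and mTOR signalling ran from -0.0052 to 0.054 and that of the restraint list from -0.21 to -0.033. The cause of these shifts was not tested. The TPM of all 10 genes in both groups moved by more than 1 SD with the mitochondrial genome left out, because TPM shares its total with that genome.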

Other observations

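Insrr, which encodes the orphan insulin receptor-related receptor, was more abundant per length than Insr or Igf1r. Its level was 161 ± 46.5 TPM in βNrf2KO pools and 108 ± 26.4 TPM in control pools (SD, n = 4 and 3). TPM shares its total with the mitochondrial genome, so this is not a difference between groups. After TMM normalization the log2 fold change of Insrr was -0.22 ± 0.24 (SE, edgeR, adjusted p = 0.757). The lowest Insrr pool of each group, at 114 TPM in βNrf2KO and 87.4 TPM in control, was above every Insr level of the same group. Insrr was singled out after its values were seen.

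Among the IGF-binding proteins, Igfbp7, which binds insulin as well as IGFs, had the highest level, 634 ± 207 TPM in βNrf2KO and 346 ± 243 TPM in control pools. Igfbp3 followed with 184 ± 34.2 TPM in βNrf2KO and 69.1 ± 33.5 TPM in control pools. Igfbp5 had 72.5 ± 20.2 TPM in βNrf2KO and 63.2 ± 18.3 TPM in control pools, and Igfbp4 had 70.9 ± 26.8 TPM in βNrf2KO and 50.7 ± 16.5 TPM in control pools. Igfbp1 and Igfbp2 were close to absent, with 3 to 22 and 3 to 13 counts per pool. These are levels per length within a pool, and TPM was not tested between groups. After TMM normalization the log2 fold changes were 0.33 ± 0.20 for Igfbp7 and 0.74 ± 0.28 for Igfbp3 (SE, edgeR). They were below 0 for Igfbp5, at -0.59 ± 0.25, and for Igfbp4, at -0.26 ± 0.23.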
